A study of Mus musculus with 52 samples.

Results

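Bone marrow of 5 non-transgenic (NeuT-) female BALB/c mice aged 24 weeks was set against that of 9 NeuT- females aged 12 weeks, taken by the genotype and age in the sample titles, 14 of the 52 arrays of the series. NeuT- mice were siblings, without the transgene, of MMTV-NeuT (NeuT+) females, in which the promoter of a mouse mammary tumor virus drives an activated rat Erbb2 oncogene and tumors of the mammary gland arise. The other arrays held 9 NeuT- mice at 6 weeks, 24 NeuT+ mice (9 at 6, 9 at 12 and 6 at 24 weeks) and 5 samples of a reference RNA. Total RNA of whole marrow from each animal was hybridised to 1 Illumina mouseWG-6 v2.0 bead array. The mammary tissue of all 5 mice at 24 weeks was graded normal with a tumor burden of 0. At 12 weeks 8 of 9 were graded normal and 1 was given a mild or moderate dysplasia grade, with a burden of 0 in 6 and none recorded in 3.

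Bone marrow makes blood cells throughout life. Red cell precursors mature around resident macrophages, which hold the erythroblasts, engulf the expelled nuclei and recycle iron. B cells develop there from committed precursors, and antibody-secreting plasma cells, formed elsewhere in immune responses, return to the marrow and can persist. These populations share the space with granulocyte precursors, stroma, bone-forming cells and vessels, and an array of whole marrow reads the RNA of all of them at once. In such samples fewer cells of a type and less RNA per cell cannot be told apart.

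The leading digits of the animal number in each title form number series whose meaning the labels leave unstated. At 24 weeks mouse 1 was of series 12 and mice 2 to 5 of series 13. At 12 weeks 2 mice were of series 11, 3 of series 12 and 4 of series 15. The series 12 mouse of 24 weeks stood apart from the other mice of its age: its profile correlated at 0.984 with their mean and at 0.994 with the 12-week mean (Pearson, over all genes tested). The main results below are therefore given with and without this mouse. Without it, the 24-week group is series 13 alone, a series that holds no 12-week mouse, so age and number series cannot be told apart. Detected probes per array numbered 14907 to 16594 at 24 weeks and 15252 to 16232 at 12 weeks, a mean difference of -316.4 (exact two-sided permutation test, p = 0.260), and -569.7 without the series 12 mouse (exact permutation p = 0.0238). Median raw signals ran from 119.2 to 155.0 at 24 weeks and from 107.5 to 155.5 at 12 weeks. All 9 measured genes of the promyelocyte granule list and 20 of 21 erythroid genes were detected on all 14 arrays. For cartilage and skeletal muscle genes the counts were 0 of 4 and 3 of 7.

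Levels are log2 intensities after background correction and quantile normalization, and a change is the 24-week mean minus the 12-week mean. A gene was called at a limma p of 0.05 after Benjamini-Hochberg adjustment over 11309 genes. With all 5 mice at 24 weeks, 482 genes (4.26%) were called, 280 higher (2.48%) and 202 lower (1.79%), and 2485 had an unadjusted p under 0.05. The largest changes were mostly downward, since 14 genes rose and 47 fell by more than 2-fold. Scaling by the array median in place of quantiles called 129 genes, of which 24.8% were higher, against 58.1% of the calls reported here. Without the series 12 mouse 1472 genes (13%) were called, 823 higher (7.28%) and 649 lower (5.74%). The calls shared with the same sign numbered 478, which is 99.2% of the 482 and 32.5% of the 1472. Single mice weighed on the count: 72 genes were called without mouse 5, 74 without mouse 4 and 186 without mouse 3 of 24 weeks, and 311 or 321 without mouse 8 or mouse 2 of 12 weeks.

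Genes of antibody-secreting cells were among those that rose most. Ighg1, the constant region of the IgG1 heavy chain, had a level of 10.89 in the series 12 mouse and 11.77, 11.42, 11.75 and 11.83 in the series 13 mice at 24 weeks, against a lowest, median and highest value of 7.91, 9.05 and 10.14 in the 9 mice at 12 weeks. The groups did not overlap, and the series 12 mouse lay above each 12-week mouse. Ighg1 rose 5.44-fold (log2 change 2.44 ± 0.317 SE, n = 5 and 9, limma adjusted p = 1.75e-06), and 6.07-fold without the series 12 mouse. The gene was also low at 6 weeks, with a mean level of 6.87 ± 0.591 in 9 NeuT- mice of that age, of which 8 were detected, 9.09 ± 0.716 at 12 weeks and 11.53 ± 0.392 at 24 weeks (SD).

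Jchain, the joining chain of polymeric IgA and IgM, had levels of 7.49 in the series 12 mouse and 7.27, 7.80, 7.36 and 6.51 in the series 13 mice at 24 weeks, against 4.95 to 6.33 (median 5.31) at 12 weeks. It was detected in 4 of 5 mice at 24 weeks and 1 of 9 at 12 weeks, and was called higher (limma adjusted p = 4.13e-09, and 3.43e-08 without the series 12 mouse). Since 8 of 9 mice at 12 weeks were not above background, its fitted log2 change of 1.81 ± 0.185 (SE) is not a measured size. Tnfrsf17 encodes BCMA, a survival receptor of plasma cells. It had levels of 6.70 in the series 12 mouse and 7.75, 7.81, 7.16 and 7.34 in the series 13 mice, against 5.36 to 6.15 (median 5.63) at 12 weeks, where 0 of 9 mice had a detected signal, so the rise is a bound of at least 2.19-fold (limma adjusted p = 9.38e-10). Derl3, which helps clear misfolded protein from the endoplasmic reticulum of secretory cells, had levels of 6.78 in the series 12 mouse and 6.92, 7.15, 7.38 and 6.72 in the others, against 5.00 to 6.02 (median 5.60) at 12 weeks. It too was detected in 5 of 5 mice against 0 of 9, and rose at least 1.70-fold (limma adjusted p = 4.13e-09). For a bound, the 12-week value on each array was the probe's own signal or the lowest signal of any detected probe, whichever was higher. In all 4 genes the series 12 mouse lay with the other 24-week mice, above the highest 12-week value, with changes of 1.53 for Ighg1, 1.51 for Jchain, 0.89 for Tnfrsf17 and 0.97 for Derl3 against the 3 series 12 mice of 12 weeks. With 1 mouse against 3 these did not pass adjustment, the limma adjusted p lying between 0.619 for Jchain and 0.926 for Ighg1.

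The rest of the plasma cell list did not follow. Of its 15 measured genes 3 were higher and 1 was lower with all mice (4 and 4 without the series 12 mouse), with a median log2 change of 0.20 beside 0.01 over all genes. Slamf7, a surface receptor of plasma cells and other lymphocytes, had levels of 8.48 in the series 12 mouse and 7.12, 7.40, 6.30 and 7.30 in the series 13 mice at 24 weeks, against 7.77 to 9.15 (median 8.19) at 12 weeks. It was lower by -0.96 ± 0.236 (SE, limma adjusted p = 0.0175) and by -1.25 without the series 12 mouse, and the call was lost without mouse 4 or mouse 5 (highest limma adjusted p = 0.166). Genes that plasma cells share with B cells or other secretory cells, named here after their values were seen, did not pass with all mice. The change was 0.22 for Xbp1, the transcription factor of the secretory program, -0.19 for Mzb1, an endoplasmic reticulum protein, and -0.59 for Irf4, a factor of B cell and plasma cell differentiation. Without the series 12 mouse Irf4 was lower (-0.81, limma adjusted p = 0.0250), while Xbp1 (0.24) and Mzb1 (-0.30) did not pass. Sdc1, the plasma cell surface marker CD138, was detected in 1 of 5 mice at 24 weeks and 1 of 9 at 12 weeks. T cell genes had 0 of 11 members called and a median change of 0.19, and 1 lower and a median of 0.24 without the series 12 mouse.

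**Figure D1:**
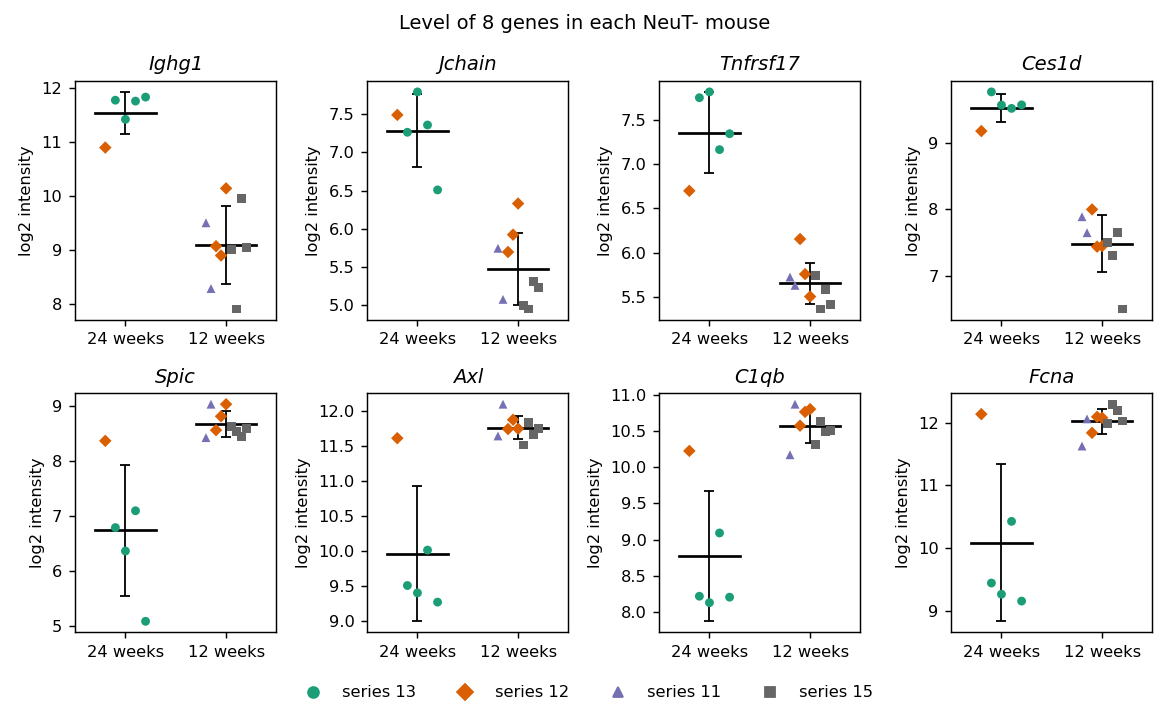
Normalized log2 intensity (vertical axis of each panel) of 8 genes in 5 NeuT- mice at 24 weeks and 9 at 12 weeks; each point is a mouse, symbol and colour give its number series, and line and bar are the mean and SD. In the upper row the series 12 mouse at 24 weeks lies above all 12-week mice, and in the lower row it lies near or among them while the series 13 mice are lower.

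The upstream sequences of the plasma cell genes are shown because these genes moved together in all 5 mice. They are the 250 bases before the start of each gene in RefSeq, build GRCm38.p6, 5′ to 3′ on the gene's strand: Jchain at chr5:88527898-88528147, minus strand, Derl3 at chr10:75893148-75893397, plus strand, and Tnfrsf17 at chr16:11313559-11313808, plus strand. Capitals mark ACGTG on either strand, the core of sites bound by XBP1. In Derl3 a single palindrome holds it on both strands, with the matches overlapping.
Jchain: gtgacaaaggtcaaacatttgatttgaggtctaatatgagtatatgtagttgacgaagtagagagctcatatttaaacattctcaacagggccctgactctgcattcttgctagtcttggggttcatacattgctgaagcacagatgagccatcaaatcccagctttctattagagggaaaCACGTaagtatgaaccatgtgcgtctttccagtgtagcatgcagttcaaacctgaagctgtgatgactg
Derl3: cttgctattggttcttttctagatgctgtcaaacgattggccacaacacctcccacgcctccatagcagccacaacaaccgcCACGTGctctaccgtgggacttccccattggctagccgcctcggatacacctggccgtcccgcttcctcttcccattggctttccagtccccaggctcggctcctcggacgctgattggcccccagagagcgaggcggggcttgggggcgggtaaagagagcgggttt
Tnfrsf17: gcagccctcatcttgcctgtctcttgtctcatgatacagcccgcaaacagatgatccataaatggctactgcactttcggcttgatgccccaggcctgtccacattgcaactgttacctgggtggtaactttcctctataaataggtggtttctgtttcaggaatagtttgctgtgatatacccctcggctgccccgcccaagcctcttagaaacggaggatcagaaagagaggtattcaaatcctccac
The motif was found in 2 of these 3 windows, beside 16.6% of 32851 promoter windows of the same length. No match in Tnfrsf17 says only that these letters are not in this window.

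Resident macrophage genes had the lowest median change of the 33 gene lists. Of 15 measured genes on the list 11 were lower and 0 higher, with a median log2 change of -1.56 beside 0.01 over all genes, and 13 were lower, with a median of -1.85, without the series 12 mouse. Spic, the transcription factor that mouse red pulp and marrow macrophages need, had levels of 8.36 in the series 12 mouse and 6.79, 6.37, 7.10 and 5.09 in the series 13 mice at 24 weeks, against 8.42 to 9.03 (median 8.58) at 12 weeks. The 4 series 13 mice stood well below the 12-week range and the series 12 mouse just under it. Spic fell 3.80-fold (log2 change -1.93 ± 0.297 SE, n = 5 and 9, limma adjusted p = 3.72e-05), and 5.03-fold without the series 12 mouse. A second, dimmer Spic probe changed by -1.36.

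Axl, a receptor with which macrophages take up dying cells, had levels of 11.61 in the series 12 mouse and 9.51, 9.41, 10.02 and 9.27 in the series 13 mice, against 11.51 to 12.09 (median 11.74) at 12 weeks. It fell 3.48-fold (log2 change -1.80 ± 0.242 SE, limma adjusted p = 2.66e-06), and 4.62-fold without the series 12 mouse, which lay inside the 12-week range. C1qb encodes a chain of complement C1q, which tags debris and is made by tissue macrophages. Its levels were 10.23 in the series 12 mouse and 8.22, 8.13, 9.09 and 8.20 in the series 13 mice, against 10.17 to 10.87 (median 10.57) at 12 weeks. C1qb fell 3.47-fold (-1.80 ± 0.240 SE, limma adjusted p = 2.53e-06), C1qc by -1.73 and C1qa by -1.56 (4.47-fold, -2.13 and -1.85 without the series 12 mouse), genes that stand beside each other in the genome. Cd163, the scavenger receptor for hemoglobin bound to haptoglobin, had levels of 8.34 in the series 12 mouse and 5.82, 5.77, 6.94 and 6.51 in the series 13 mice, against 7.94 to 8.93 (median 8.46) at 12 weeks. It changed by -1.74 ± 0.326 (SE, limma adjusted p = 0.000994), and by -2.15 without the series 12 mouse, and was detected in 3 of 5 mice against 9 of 9.

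Beside the list, 4 of the genes with the largest falls are known from tissue macrophages of the mouse. Fcna, the lectin ficolin A, which binds microbial sugars, had a level of 12.13 in the series 12 mouse and 9.45, 9.27, 10.43 and 9.16 in the series 13 mice, against 11.63 to 12.29 (median 12.06) at 12 weeks. It changed by -1.93 ± 0.282 (SE, limma adjusted p = 1.48e-05) and by -2.45 without the series 12 mouse. Itgad, the integrin subunit alpha D, changed by -1.79 on its brightest probe and by -1.57 on another, while a probe detected on 4 of the 14 arrays, stood at -0.13. Slco2b1, an organic anion transporter, changed by -1.78. Itgad changed by -2.20 and Slco2b1 by -2.12 without the series 12 mouse. Cd209f, a lectin of the family of the dendritic cell receptor DC-SIGN, was lower (limma adjusted p = 0.000648) and was detected in 1 of 5 mice at 24 weeks, the series 12 mouse, and 9 of 9 at 12 weeks. Against the 4 undetected series 13 mice its fall is a bound of at least 1.94-fold.

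The other list members, named after their values were seen, spread more widely. Mertk, a relative of Axl, changed by -1.66, Siglec1, the sialic acid receptor CD169, by -1.60, and Mrc1, the mannose receptor, by -1.42. These were -2.06, -1.94 and -1.80 without the series 12 mouse. Mertk and Siglec1 were each detected in 2 of 5 mice at 24 weeks and 9 of 9 at 12 weeks, so the sizes of their falls are uncertain. Timd4, a receptor for exposed phosphatidylserine, was lower (limma adjusted p = 0.00304) and was detected in 1 of 5 mice at 24 weeks, the series 12 mouse, and 9 of 9 at 12 weeks. Against the 4 undetected series 13 mice its fall is a bound of at least 1.55-fold. Vcam1, the adhesion molecule that holds erythroblasts and is also made by stroma, changed by -0.54 (limma adjusted p = 0.0235), and by -0.67 without the series 12 mouse. Its call was lost without any 1 of mice 2 to 5 (highest limma adjusted p = 0.0945). The 4 members that did not pass with all mice were Adgre1, a surface antigen of mouse macrophages, at -0.73, Hmox1, heme oxygenase, at -0.57, the complement receptor Vsig4 at -0.57, and Slc40a1, the iron exporter ferroportin, at -0.22. Hmox1 passed without the series 12 mouse, at -0.77. Vsig4 passed there too (limma adjusted p = 0.0378), but was detected in 0 of 4 series 13 mice and 5 of 9 mice at 12 weeks. Adgre1 (-0.74) and Slc40a1 (-0.29) did not pass there either. Within series 12, 1 mouse against 3, the changes were -0.43 for Spic, -0.18 for Axl, -0.49 for C1qb and 0.13 for Fcna, and the list's median was -0.12 with 0 of 15 genes called. With the number series as a fixed block in the model, Mertk (-1.08), Cd163 (-1.23), Mrc1 (-0.89), Timd4 (-0.68), Vcam1 (-0.26) and Fcna (-1.27) did not pass (limma adjusted p from 0.0539 to 0.422). Spic (-1.72), Axl (-1.31) and the 3 C1q genes (-1.63 for C1qb) passed there. That block takes series effects as equal in both genotypes and is estimated from NeuT+ mice as well, so it is not an adjustment within NeuT- mice. With the number series as a random block Mertk (-1.37), Cd163 (-1.51), Mrc1 (-1.15) and Fcna (-1.60) passed (limma adjusted p from 0.00632 to 0.0481). Timd4 (-0.90) and Vcam1 (-0.40) did not (limma adjusted p of 0.0816 and 0.212). The monocyte list, markers of a related cell type, had 0 of 12 members called and a median change of 0.14.

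Upstream sequences are shown for 4 of the macrophage genes, which moved together in the series 13 mice. They come from the same table and build: C1qb at chr4:136886201-136886450, minus strand, C1qc at chr4:136892915-136893164, minus strand, Axl at chr7:25788734-25788983, minus strand, and Spic at chr10:88683024-88683273, minus strand. Capitals mark GAGGAA or its reverse complement, the purine-rich core of sites bound by PU.1 and its relative Spi-C.
C1qb: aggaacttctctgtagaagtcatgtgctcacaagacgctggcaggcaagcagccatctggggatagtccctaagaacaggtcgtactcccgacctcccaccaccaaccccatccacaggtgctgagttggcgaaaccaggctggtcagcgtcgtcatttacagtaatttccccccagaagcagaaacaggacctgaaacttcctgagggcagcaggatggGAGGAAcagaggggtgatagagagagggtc
C1qc: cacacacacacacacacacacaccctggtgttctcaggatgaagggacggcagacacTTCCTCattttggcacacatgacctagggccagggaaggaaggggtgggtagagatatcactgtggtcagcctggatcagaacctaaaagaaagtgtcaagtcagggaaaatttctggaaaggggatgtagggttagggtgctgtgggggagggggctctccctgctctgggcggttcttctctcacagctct
Axl: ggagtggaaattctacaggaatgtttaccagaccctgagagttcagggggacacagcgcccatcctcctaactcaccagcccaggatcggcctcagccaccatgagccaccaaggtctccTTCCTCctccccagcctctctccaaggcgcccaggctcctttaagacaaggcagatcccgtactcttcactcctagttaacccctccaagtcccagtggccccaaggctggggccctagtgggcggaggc
Spic: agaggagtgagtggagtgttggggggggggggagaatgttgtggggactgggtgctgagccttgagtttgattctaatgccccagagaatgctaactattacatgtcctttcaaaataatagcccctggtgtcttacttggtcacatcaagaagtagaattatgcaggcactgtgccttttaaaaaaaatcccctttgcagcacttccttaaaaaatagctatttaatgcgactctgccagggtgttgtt
The motif was sought for 9 genes: these 4, Cd163, Fcna, Itgad, Slco2b1 and Cd209f. Of them 8 had an entry in the table and 4 of those held it (C1qb, C1qc, Axl and Fcna), beside 23.3% of all windows.

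Erythroid genes were lower by smaller steps. Of 21 measured genes 7 were lower and 0 higher, with a median log2 change of -0.53, and 10 were lower, with a median of -0.56, without the series 12 mouse. Slc4a1, the band 3 anion exchanger of the red cell membrane, had levels of 13.52 in the series 12 mouse and 13.40, 13.48, 12.79 and 12.91 in the series 13 mice at 24 weeks, against 13.76 to 14.64 (median 14.29) at 12 weeks. All 5 mice lay below the 12-week range, and the fall was 2.08-fold (-1.06 ± 0.280 SE, limma adjusted p = 0.0246), and 2.20-fold without the series 12 mouse. Alas2, which starts heme synthesis in erythroid cells, had levels of 11.61 in the series 12 mouse and 10.99, 11.20, 10.37 and 10.31 in the series 13 mice, against 11.31 to 13.21 (median 12.32). It changed by -1.29 ± 0.348 (SE, limma adjusted p = 0.0271), and by -1.47 without the series 12 mouse. Kel, the Kell blood group protein, changed by -0.81 (limma adjusted p = 0.0386), and Hemgn, a nuclear protein of erythroid precursors, by -0.81 (limma adjusted p = 0.0479). Kel changed by -0.85 and Hemgn by -0.91 without the series 12 mouse. The other 3 calls, named after their values were seen, were the heme synthesis enzymes Urod (-0.47) and Fech (-0.64) and the membrane skeleton gene Sptb (-0.77). All 3 were also called without the series 12 mouse (-0.47, -0.62 and -0.81). The regulators Klf1 (-0.58) and Gata1 (-0.34) did not pass, nor did they without the mouse (-0.57 and -0.29). The globin probe Hba-a1 did not pass either, with raw signals of 47866 to 59557 at 24 weeks and 59932 to 68859 at 12 weeks. Whether so bright a probe was saturated was not tested, and no size of change is read from it. These calls rested on few mice: 0 of the 21 genes passed without mouse 4 or without mouse 5, with medians of -0.48 and -0.45. Under scaling by the array median 1 passed. With the number series as a random block, at a fitted correlation of 0.289 within a series, the 7 called genes did not pass. Their limma adjusted p ran from 0.0504 for Fech to 0.152 for Alas2. As a fixed block, with the limits given above, Slc4a1 (-1.49), Kel (-1.40), Fech (-1.02) and Sptb (-1.28) passed. Klf1 (-1.22) and Gata1 (-1.02) passed there too (limma adjusted p from 0.0161 for Kel and Fech to 0.0385 for Gata1). Alas2, Hemgn and Urod did not pass with that block (limma adjusted p from 0.0551 to 0.192). In series 12 alone the list's median was -0.57, close to that over all mice, with 0 genes called.

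B-lineage genes were divided by the series 12 mouse. With all mice 0 of 12 early B cell genes and 0 of 16 mature B cell genes were called by limma, with median changes of -0.49 and -0.48. Without that mouse 7 and 9 were lower and 0 higher, with medians of -0.72 and -0.67. Vpreb3, a chaperone of B cell receptor assembly in precursors, had a level of 14.17 in the series 12 mouse and 13.07, 13.52, 11.99 and 12.78 in the series 13 mice, against 13.23 to 13.99 (median 13.76) at 12 weeks. The series 12 mouse was above and 3 of the 4 series 13 mice were below the 12-week range. The change was -0.59 (limma adjusted p = 0.120) with it and -0.86 ± 0.229 (SE, limma adjusted p = 0.0115) without. Blnk, an adaptor of B cell receptor signaling, stood at -0.66 with and -0.85 without the mouse, Cd22, an inhibitory B cell receptor, at -0.63 and -0.79, and Ccr6, a chemokine receptor, at -0.79 and -1.08. Tnfrsf13c, the receptor for the B cell survival factor BAFF, stood at -0.62 and -0.84. Lef1, a transcription factor of early B cells, did not pass in either comparison (-0.69 and -0.80). The mouse with the lowest B cell levels was mouse 4, and without it the medians of both lists over the other 4 mice were -0.30 and -0.27.

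**Figure D2:**
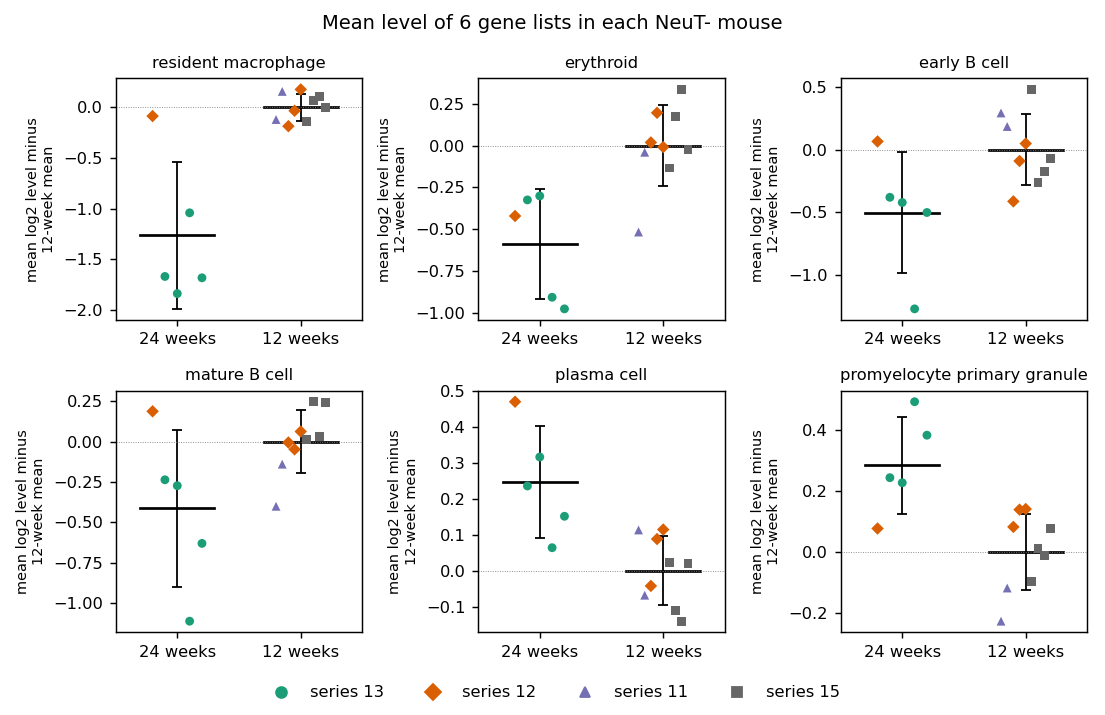
Mean log2 level of the measured genes of 6 lists in each mouse, relative to the mean of the 9 mice at 12 weeks (vertical axes), at 24 weeks (left) and 12 weeks (right); symbols give the number series, and line and bar the mean and SD. The series 12 mouse at 24 weeks stands at -0.09 for macrophage genes, where the series 13 mice run from -1.84 to -1.04, and at 0.47 for plasma cell genes, above the 12-week range of -0.14 to 0.11.

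Genes of the promyelocyte granule list, named for precursors of neutrophils, were modestly higher. The list is not confined to primary granule proteins, since it also holds Hp and the transcription factor Cebpe. Of 9 measured genes 4 were higher and 0 lower (median change 0.27), and 6 were higher (median 0.37) without the series 12 mouse. Ctsg, the granule protease cathepsin G, had levels of 14.77 in the series 12 mouse and 14.97, 14.92, 15.36 and 15.44 in the series 13 mice, against 14.41 to 14.78 (median 14.62) at 12 weeks. It rose 1.38-fold (0.47 ± 0.104 SE, limma adjusted p = 0.00739), with each series 13 mouse above the 12-week range. Prtn3, the granule proteinase 3, rose by 0.38, Hp, haptoglobin, by 0.49, and Cebpe, a transcription factor of granulocyte maturation, by 0.37, with limma adjusted p between 0.0246 and 0.0392. The changes were 0.55 for Ctsg, 0.44 for Prtn3, 0.57 for Hp and 0.42 for Cebpe without the series 12 mouse. Raw signals at 24 weeks reached 58791 for Prtn3, 55016 for Hp and 49138 for Ctsg, in the range of the Hba-a1 probe. Saturation was not tested for them either, so the sizes of their changes are uncertain. None of the 9 genes passed without mouse 4, without mouse 5, or under scaling by the array median (medians 0.22, 0.25 and 0.38). The list of secondary granule and maturation genes of neutrophils had 0 of 18 called (median 0.18). Of the monocyte list, Ccr2, the chemokine receptor of inflammatory monocytes, stood at 0.67 with all mice and 0.77 (limma adjusted p = 0.0280) without the series 12 mouse, and Fn1, fibronectin, at 0.58 and 0.71 (limma adjusted p = 0.0432).

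Among genes outside the lists, 3 myeloid ones were named by the size of their rise. Cxcr1, a receptor for neutrophil-attracting chemokines, had levels of 6.50 in the series 12 mouse and 7.55, 8.11, 8.39 and 9.02 in the series 13 mice, against 6.00 to 7.64 (median 6.41). Wfdc17, a secreted protein with a WAP domain, had levels of 9.76 in the series 12 mouse and 10.76, 10.73, 11.81 and 12.19 in the others, against 9.03 to 10.31 (median 9.72). Both rose with all mice, by 1.34 (limma adjusted p = 0.0370) and 1.25 (limma adjusted p = 0.0463), although the series 12 mouse lay inside the 12-week range, and by 1.69 and 1.57 without it. Leaving out 1 mouse at a time lost the call of Cxcr1 in 9 of 14 cases (highest limma adjusted p = 0.193) and of Wfdc17 in 11 (highest 0.218). Upp1, uridine phosphorylase, rose by 1.14 ± 0.271 (SE, limma adjusted p = 0.0131), and by 1.30 without the series 12 mouse, with all 5 mice above the 12-week range and changes of 1.26 and 1.34 on its other probes; its call was lost without mouse 4 or mouse 5 (highest limma adjusted p = 0.109).

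Genes of bone and stroma were lower in part. Bglap and Bglap2 encode osteocalcin, the protein of mature osteoblasts, and are near-identical copies whose probes can bind each other's RNA, so their values are uncertain. Bglap had levels of 8.55 in the series 12 mouse and 9.28, 9.08, 7.85 and 7.59 in the series 13 mice, against 9.84 to 11.02 (median 10.15), a change of -1.79 ± 0.518 (SE, limma adjusted p = 0.0380). Bglap2 changed by -1.81 (limma adjusted p = 0.0397), and both were lower in all 5 mice than in any 12-week mouse. They changed by -1.81 and -1.84 without the series 12 mouse. They were 2 of 8 osteoblast and osteocyte genes, a list whose median was -0.11. Dcn, decorin, a proteoglycan of connective tissue, had levels of 7.44 in the series 12 mouse and 7.33, 6.58, 5.64 and 5.42 in the series 13 mice, against 7.85 to 8.85 (median 8.05). It changed by -1.74 ± 0.401 (SE, limma adjusted p = 0.0107), and by -1.98 without the series 12 mouse, was detected in 3 of 5 mice at 24 weeks, and was the 1 gene called of 17 stromal and matrix genes (median -0.43). Sparc, a matrix protein of bone, stood at -1.14 and passed without the series 12 mouse (-1.18, limma adjusted p = 0.0469), and Col1a1, type I collagen, did not pass with it (-1.24, limma adjusted p = 0.193) or without it (-1.32, limma adjusted p = 0.162). The call of Dcn was lost without mouse 4 or mouse 5 (highest limma adjusted p = 0.0900), and its change was -0.20 with the number series as a fixed block (limma adjusted p = 0.883). Those of Bglap and Bglap2 were lost without mouse 3, mouse 4 or mouse 5 of 24 weeks and without mouse 2 or mouse 8 of 12 weeks, and that of Bglap2 also without mouse 1 or mouse 9 of 12 weeks (highest limma adjusted p of 0.174 and 0.184). How much bone surface each marrow sample held was not recorded in the labels, and its part in these values was not tested.

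Other cell types contributed 1 call each with all mice. Pparg, the nuclear receptor of fat cells that macrophages also express, had levels of 8.16 in the series 12 mouse and 7.01, 6.40, 6.47 and 6.54 in the series 13 mice, against 7.69 to 8.40 (median 8.04). It changed by -1.08 ± 0.221 (SE, limma adjusted p = 0.00304), and by -1.39 without the series 12 mouse, among 6 adipocyte genes with a median of -0.61. Without that mouse 4 of the 6 were lower and 0 higher (median -0.72), beside 5.74% of all genes lower. Pparg did not pass with the number series as a fixed (-0.67, limma adjusted p = 0.192) or random block (-0.87, limma adjusted p = 0.0867). Lpl, lipoprotein lipase, stood at -0.54 and passed without the series 12 mouse (-0.64, limma adjusted p = 0.0135). Ccr3, the eotaxin receptor of eosinophils, was detected in 1 of 5 mice at 24 weeks, the series 12 mouse, and 8 of 9 at 12 weeks, and was lower (limma adjusted p = 0.00128). Against the 4 undetected series 13 mice its fall is a bound of at least 1.30-fold. The eosinophil granule gene Prg3 did not pass with the mouse (-0.80, limma adjusted p = 0.422) or without it (-0.72, limma adjusted p = 0.485). Stab2, a hyaluronan scavenger receptor of marrow sinusoids, changed by -0.65 (limma adjusted p = 0.0109), and by -0.77 without the series 12 mouse, among 13 endothelial genes with a median of 0.02, a call lost without mouse 5 (limma adjusted p = 0.0668). Batf3, a transcription factor of cross-presenting dendritic cells, changed by 0.75 (limma adjusted p = 0.0250), and by 0.82 without the series 12 mouse, among 9 dendritic cell genes with a median of -0.06. It was detected in 5 of 5 mice against 3 of 9, and lost its call without mouse 2, mouse 4 or mouse 5 of 24 weeks or mouse 8 of 12 weeks (highest limma adjusted p = 0.106). Of 13 stem and progenitor cell genes limma called 0 with all mice, and 1 without the series 12 mouse. That gene was Sox4, a transcription factor of lymphoid and myeloid progenitors, which had a level of 12.44 in the series 12 mouse and 9.35 to 10.47 in the series 13 mice, against 11.06 to 12.06 at 12 weeks. With all mice it changed by -0.95, and a second Sox4 probe, detected on 5 of the 14 arrays, by -0.08. Natural killer, megakaryocyte, basophil and osteoclast lists had 0 genes called by limma with or without the mouse.

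**Figure D3:**
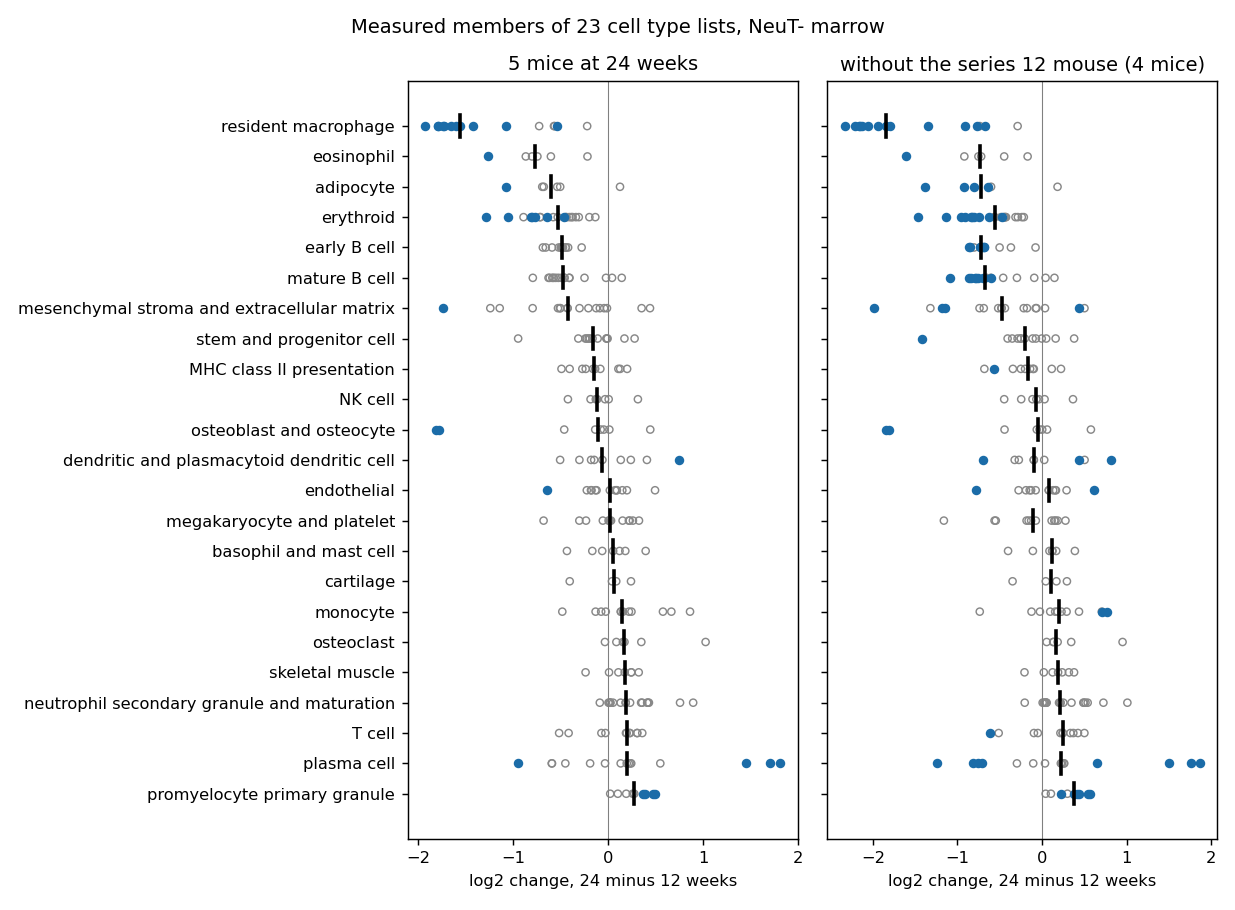
Log2 change of each measured gene of 23 cell type lists, 24-week minus 12-week mean (horizontal axis), with all 5 mice at 24 weeks (left) and with the 4 series 13 mice (right); filled points passed limma's adjusted p of 0.05, open points did not, and bars are list medians. Macrophage genes lie furthest left in both panels, with medians of -1.56 and -1.85, and filled points of the B cell lists appear in the right panel.

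Of 10 pathway lists, 2 held called genes with all mice. In the cell cycle list 3 of 23 genes were lower and 0 higher (median -0.17). They were Birc5, survivin, at -0.37 (limma adjusted p = 0.00435), Mcm5, a subunit of the replicative helicase, at -0.29 (limma adjusted p = 0.0273), and Cdc6, which loads that helicase, at -0.49 (limma adjusted p = 0.0400). A second Cdc6 probe stood at -0.15, and other Birc5 probes, detected on all 14 arrays, at -0.25 and -0.23. Birc5 (-0.39) and Mcm5 (-0.35) were also called without the series 12 mouse. Cdc6 did not pass without that mouse (-0.43, limma adjusted p = 0.0586), Birc5 not without mouse 5 (limma adjusted p = 0.0506), and Mcm5 not without any 1 of mice 2 to 5. Fkbp5, a co-chaperone of the glucocorticoid receptor that glucocorticoids induce, rose by 0.39 (limma adjusted p = 0.00611), and by 0.47 without the series 12 mouse, while the other 6 glucocorticoid response genes did not pass and the list's median was -0.21. Its call was lost without mouse 4 or mouse 5 (highest limma adjusted p = 0.0700). Cholesterol synthesis genes had 0 of 13 called with all mice (median 0.29) and 3 higher without the series 12 mouse, among them Fdps at 0.45 (limma adjusted p = 0.0338) and Mvd at 0.54 (limma adjusted p = 0.0287). Interferon, inflammatory cytokine, immediate early, unfolded protein, circadian, ribosomal protein and oxidative phosphorylation lists had 0 genes called by limma with all mice. Without the series 12 mouse 1 interferon gene of 18 was higher, and 1 inflammatory gene of 20 was higher and 1 lower. Of 17 unfolded protein genes 1 was higher and 1 lower, and 1 oxidative phosphorylation gene of 21 was lower. In that fit 13% of all genes were called, so these counts are not read as results about the pathways. The genes were Oas3 (0.94), Tnf (0.95), Cd83 (-0.96), Sdf2l1 (0.46), Herpud1 (-0.40) and Uqcrc2 (-0.28), named after their values were seen. The immediate early, circadian and ribosomal protein lists had 0 called without that mouse too.

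The largest rise of a gene outside the lists, apart from Ighg1, was that of Ces1d, a carboxylesterase that hydrolyses stored lipid. It had levels of 9.18 in the series 12 mouse and 9.77, 9.57, 9.52 and 9.57 in the series 13 mice, against 6.50 to 8.0 (median 7.50) at 12 weeks. All 5 mice lay above all 9, and it rose 4.10-fold (2.04 ± 0.264 SE, limma adjusted p = 1.75e-06), 4.36-fold without the series 12 mouse. Adgrg7, an adhesion G protein-coupled receptor, was called higher (limma adjusted p = 0.000103), and so was Gnb5, a G protein beta subunit (limma adjusted p = 0.0149). Both were detected in 5 of 5 mice against 2 of 9, so their fitted changes of 1.01 and 0.99 (1.16 and 1.13 without the series 12 mouse) are not measured sizes. Cacna1h, a subunit of T-type calcium channels detected in 5 of 5 mice against 6 of 9, rose by 1.01 (limma adjusted p = 0.00251), and by 1.11 without the series 12 mouse. Pdzd3, a PDZ domain scaffold, was detected in 5 of 5 mice against 0 of 9 and rose at least 1.28-fold (limma adjusted p = 0.00924). C130026I21Rik, which has near-identical copies and an uncertain value for that reason, had a change of 1.20 (limma adjusted p = 0.0246), and 1.13 without the series 12 mouse. The calls of Gnb5 and Pdzd3 were lost without mouse 4 or mouse 5 (highest limma adjusted p of 0.113 and 0.0796), and that of C130026I21Rik without mouse 2, mouse 4 or mouse 5 (highest 0.126). Zc3h13, a zinc finger protein of the RNA methylation complex, passed when the series 12 mouse was left out and not with it. Its levels were 10.39 in that mouse and 7.29, 6.43, 7.33 and 7.18 in the series 13 mice, against 7.82 to 10.94 (median 9.15) at 12 weeks, a change of -2.26 without the mouse (limma adjusted p = 0.0270) and -1.59 with it (limma adjusted p = 0.160). With the number series as a fixed block its change had the opposite sign and passed (1.93, limma adjusted p = 0.0120).

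The series 12 mouse was set against the calls made without it, to which it did not contribute at 24 weeks. Of the 823 genes called higher in series 13, it lay on the same side of the 12-week mean in 547 (66.5%) and nearer to the series 13 mean than to the 12-week mean in 119 (14.5%). Of the 649 called lower it lay on the same side in 263 (40.5%) and nearer to the series 13 mean in 89 (13.7%). It lay beyond the whole 12-week range, in the direction of the call, for 97 genes called higher and 67 called lower. The share of all genes beyond that range is not given here, so these counts are not read as agreement with the calls. By list, it was inside the 12-week range for 13 of 15 macrophage genes and below it for 7 of 21 erythroid genes. It was above that range for 5 of 15 plasma cell and 5 of 12 early B cell genes. Other lists departed too, with 10 of 22 immediate early genes below the range. Above it were 4 of 12 megakaryocyte, 4 of 13 stem and progenitor cell and 3 of 6 osteoclast genes. Without the share over all genes, no list is read as particular in this mouse. A test inside series 12 had 1 mouse against 3, took its spread from the other groups, and called 0 genes (limma), with 558 at an unadjusted p under 0.05.

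Groups without overlap were counted as well. With all 5 mice 143 genes (1.26%) had no shared range between 24 and 12 weeks, and without the series 12 mouse 857 (7.58%) had none. Among the 15 plasma cell genes 3 did not overlap with all mice and 4 without, and among the 15 macrophage genes 1 and 11. For erythroid genes the counts were 2 and 3 of 21.

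The same change was measured in NeuT+ mice (n = 6 and 9), and the difference between the genotypes (the change in NeuT+ minus the change in NeuT-) was tested in the same fit. With all mice 125 genes (1.11%) differed, 20 with a positive and 105 with a negative difference, and 43 (0.38%) without the series 12 mouse of NeuT-. Among the plasma cell genes Tnfrsf17 and Jchain had a smaller fitted rise in NeuT+ marrow, and Derl3 (-0.40, limma adjusted p = 0.372) did not pass. These genes were named by the size of their rise in NeuT- mice, and the difference subtracts that rise. The choice therefore favours negative differences. Tnfrsf17 averaged 6.38 ± 0.495 at 24 weeks and 5.69 ± 0.232 at 12 weeks in NeuT+ mice, against 7.35 ± 0.457 and 5.65 ± 0.235 in NeuT- mice (SD), a difference of -1.02 ± 0.220 (SE, limma adjusted p = 0.0128), and -1.18 without the series 12 mouse (limma adjusted p = 0.00295). Jchain averaged 6.15 ± 0.492 and 5.31 ± 0.221 in NeuT+ mice, against 7.28 ± 0.478 and 5.47 ± 0.477 in NeuT- mice (SD), a difference of -0.97 (limma adjusted p = 0.0444) that did not pass without the mouse (-0.92, limma adjusted p = 0.117). At 12 weeks Tnfrsf17 was detected in 0 of 9 mice of either genotype and Jchain in 0 of 9 NeuT+ and 1 of 9 NeuT- mice, so these differences are fitted values near background. Ighg1 averaged 11.53 ± 0.898 and 9.45 ± 0.503 in NeuT+ mice, against 11.53 ± 0.392 and 9.09 ± 0.716 in NeuT- mice (SD), and its difference of -0.36 did not pass (limma adjusted p = 0.784).

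Over the lists, with all mice, 6 of 12 early B cell, 6 of 16 mature B cell and 6 of 15 plasma cell genes differed, each with a more negative change in NeuT+ marrow, at median differences of -1.18, -1.02 and -0.40 beside -0.01 over all genes. The counts were 1, 2 and 3 without the series 12 mouse of NeuT-, at medians of -1.01, -0.88 and -0.46. Among the genes described above the difference was -1.44 for Vpreb3 (limma adjusted p = 0.0157), -1.21 for Blnk (limma adjusted p = 0.0379), -1.14 for Cd22 (limma adjusted p = 0.0392) and -1.67 for Irf4 (limma adjusted p = 0.00827). Without the series 12 mouse of NeuT-, Irf4 kept its call (-1.45, limma adjusted p = 0.0303) and the other 3 did not, with limma adjusted p from 0.0643 to 0.132. Of 15 macrophage genes 0 differed with all mice by limma (median 0.86), and 4 had a positive difference without the series 12 mouse (median 1.13). Axl averaged 10.75 ± 0.451 at 24 weeks and 11.57 ± 0.272 at 12 weeks in NeuT+ mice, against 9.96 ± 0.962 and 11.76 ± 0.164 in NeuT- mice (SD), a difference of 0.98 (limma adjusted p = 0.135) with all mice and 1.40 (limma adjusted p = 0.00599) without the series 12 mouse. C1qb (1.56), C1qc (1.42), Fcna (1.68), Slco2b1 (1.34) and Itgad (1.34) also passed only without it, with limma adjusted p from 0.00293 to 0.0334. Spic (1.13, limma adjusted p = 0.174) did not. These macrophage genes were named by the size of their fall in NeuT- mice, and the difference subtracts that fall. Choosing them so favours positive differences. The series 13 mice alone, 4 of each genotype at 24 weeks, had macrophage list means of -0.50 ± 0.48 in NeuT+ mice and -1.56 ± 0.35 in NeuT- mice relative to NeuT- at 12 weeks (SD). The 2 series 12 mice of NeuT+ at 24 weeks stood at -0.96 and -0.41, against -0.09 in the 1 series 12 mouse of NeuT-. At 6 weeks the list mean was -0.29 ± 0.17 in NeuT+ and -0.21 ± 0.39 in NeuT- mice (SD, n = 9 each), where the lowest NeuT- mouse stood at -0.86.

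**Figure D4:**
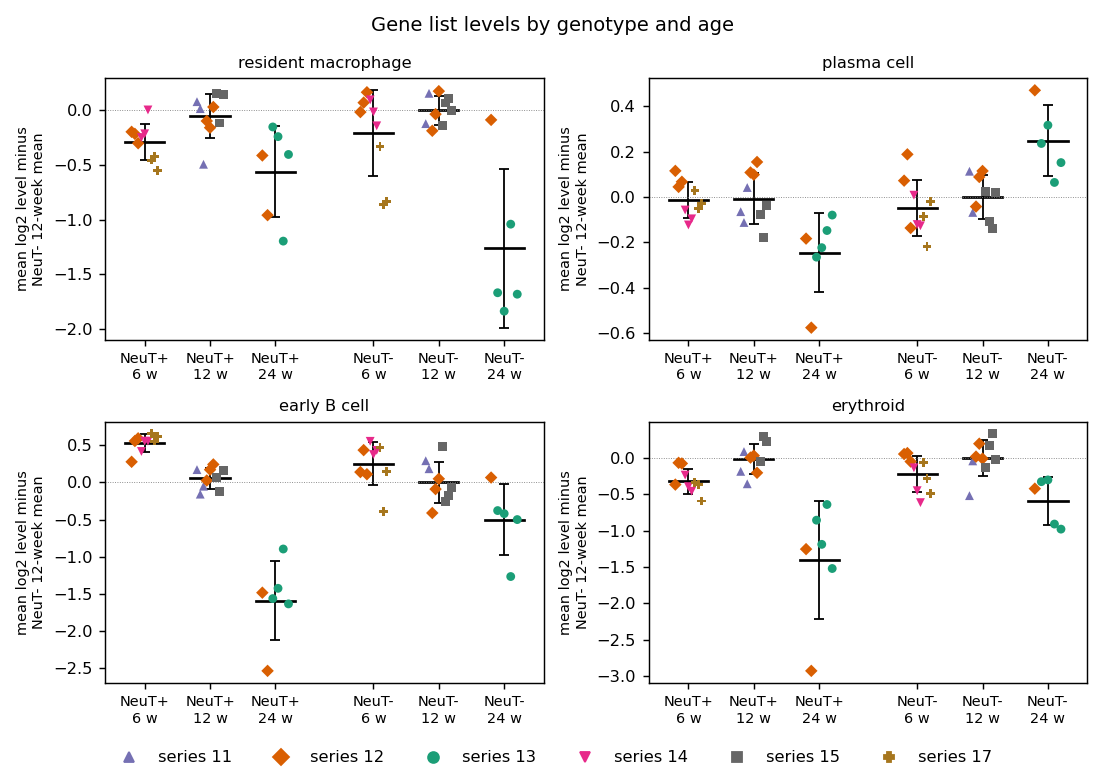
Mean log2 level of 4 gene lists relative to the NeuT- mean at 12 weeks (vertical axes) in NeuT+ mice (left) and NeuT- mice (right) at 6, 12 and 24 weeks; each point is a mouse, symbols give the number series, and line and bar the mean and SD. For macrophage genes the NeuT- mice at 24 weeks are spread from -1.84 to -0.09, the last being the series 12 mouse, and NeuT+ mice of that age average -0.56.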

How the data were processed

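Illumina mouseWG-6 v2.0 arrays were hybridised with bone marrow RNA of 47 mice and 5 reference RNA samples, scanned and read with BeadStudio 3.3.8 per the series' design text. The labels name a whole genome DASL labeling and the design text a TotalPrep amplification, a conflict not settled here. The authors deposited non-normalized probe intensities with a detection p-value for each probe and array, and separately log2 values that the lumi package (version not given) had normalized by robust spline normalization, per the series' design text. Scale and probe names were checked on the files, and no column of an unlisted sample was present.

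The intensities were background corrected, quantile normalized and put on the log2 scale with neqc over all 52 arrays (limma 3.58.1, R 4.3.3, offset 16, background inferred from the detection p). A probe was kept where its detection p was under 0.01 on 1 array or more (21592, of which 18225 have 1 gene symbol in GEO's platform annotation). Each gene was taken from its probe with the highest mean, giving 11309 genes. A limma model of 6 genotype and age groups, with 1 mean per group and no block, gave the contrast of 24 against 12 weeks with Benjamini-Hochberg adjustment. Array measures were compared by exact permutation, and the fit was tested on simulated data. Each mouse array is a separate animal by its number in the title.

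Genes named were the 12 higher and 12 lower with the largest change among those called and detected on all arrays of the brighter group, 6 each from the fit without the series 12 mouse, and for each of 33 lists up to 3 with the largest change and up to 4 called. Others are said to be named after their values were seen. Members and lists were chosen with earlier results of these data known. Alternatives were the normalization, background correction, probe filter and rule, arrays fitted, number series, array weights and leaving out each mouse.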

Additional observations from a re-analysis of the deposited data

Results flagged for a closer look

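Of 164 groups of 4 to 10 values examined (79 genes and the array measures), 14 held a highest or lowest mouse farther from its neighbour than Dixon's 95% critical value allows, where chance gives about 1 in 20 groups. At 24 weeks the series 12 mouse was the highest for Stab2 (gap over range 0.786), Ccr3 (0.776), Zc3h13 (0.774) and Tubb1 (0.734), a tubulin of platelets that did not pass in either comparison. Mouse 5 of that age had a median raw signal above the others (0.771). At 12 weeks mouse 3 was the highest for Tnfrsf17 (0.501) and the lowest for Ccr3 (0.587), mouse 1 the lowest for C1qc (0.511) and Hemgn (0.503), mouse 2 the highest for Slco2b1 (0.519) and mouse 8 the lowest for Hba-a1 (0.649). Mouse 6 was the highest for Lef1 (0.537), mouse 5 the highest for Fn1 (0.511) and mouse 9 the lowest for Ces1d (0.535).

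For 8 named genes the change with age differed between genotypes (change in NeuT+ minus change in NeuT-, limma adjusted p under 0.05 with all mice). Genes were named largely by their change in NeuT- mice, which this difference subtracts, so the tests are not independent of the choice. All 8 differences were negative. They were -1.02 for Tnfrsf17, -0.97 for Jchain, -1.32 for Slamf7, -1.67 for Irf4, -1.01 for Mzb1, -1.44 for Vpreb3, -1.21 for Blnk and -1.14 for Cd22. Without the NeuT- mouse of series 12 those of Tnfrsf17, Irf4 and Mzb1 passed.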

How the results depend on the processing

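Over 27 alternative settings the count of 482 called genes moved with the mice used and with the model. It ran from 72 to 1472 when 1 mouse was left out, and was 129 under median scaling, 69 with the number series as a random block, 1805 with array weights, 860 for series 13 against series 15 alone and 0 within series 12 (558 at an unadjusted p under 0.05). With the series as a fixed block 453 genes were called, 219 higher and 234 lower. The same block without the series 12 mouse called 1603, 707 higher and 896 lower. There series 13 was tied to the other series only through NeuT+ mice of 24 weeks (2 of series 12 and 4 of series 13). That fit takes series effects as equal in both genotypes, so its count is not a change in NeuT- mice freed of series. Without the series 12 mouse the count of 1472 ran from 469 to 1577 when 1 more mouse was left out, and was 625 under median scaling, of which 26.7% were higher, 502 with the random block and 2268 with array weights. The 125 genes that differed between genotypes ran from 28 to 299, and were 33 under median scaling, 74 with no detection filter, 360 with the fixed and 316 with the random block, 344 with array weights and 18 for series 13 against series 15. The difference in detected probes of -316.4 ran from -569.7 to -148.0, and that in median raw signal from -7.83 to 1.52. Of 51 called genes named here 21 kept the call under the fixed block and 21, in part other genes, under the random block. The call was kept by 31 under median scaling, 51 on the deposited log2 values, 25 without mouse 4 and 23 without mouse 5. All 51 had the same sign in these settings. Within series 12 the sign turned for Slamf7 (0.60), Cd163 (0.048), Mrc1 (0.15), Fcna (0.13), Hp (-0.088), Cxcr1 (-0.47), Wfdc17 (-0.33), Pparg (0.067), Ccr3 (0.41) and Fkbp5 (-0.0075). The cause of these shifts was not tested. The number of arrays limits precision. A gene undetected in all mice of 1 group is given as a bound, and the size of a change in a gene undetected in most mice of a group is uncertain. No paired analysis was possible because the replicate numbers only name mice within a group.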
